A study of Caenorhabditis elegans with 30 samples.

Results

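The windows described here are 621 stretches of 1 kb of the C. elegans genome in which Pol II was lower in the set-32 mutant than in WT. They were chosen on the deposited RPKM (read counts normalized to window length and sequencing depth) by 3 conditions. The ratio (set-32 + 1)/(WT + 1) of Pol II was at most 0.5 with gfp RNAi and also with oma-1 RNAi, WT Pol II was at least 8 RPKM in both feedings, and the window was not marked as misannotated. The first condition could be met by 29447 windows with enough Pol II in WT, and the table holds 100270 windows, of which 99764 were not marked as misannotated.

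The series compared chromatin of synchronized young adult whole animals of 5 strains at 19 °C by ChIP-seq. The strains were WT (N2), hrde-1 (tm1200), set-32(ok1457), the double mutant met-2(n4256);set-25(ok5021), and the triple mutant, which carries the 3 alleles n4256, ok5021 and ok1457. Pol II phosphorylated at S2 of its C-terminal domain was profiled in animals kept for about 3 generations on bacteria with gfp RNAi or oma-1 RNAi, and H3K9me3 in the same 2 feedings and in animals fed OP50 bacteria without RNAi. Each strain and feeding had 1 library from pooled animals, which made 10 Pol II and 15 H3K9me3 libraries, so the libraries of a strain differ in feeding. The spread between the libraries of a strain is therefore a spread between feedings. Each genotype was represented by 1 strain.

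Pol II phosphorylated at S2 is the form found on the bodies of genes while they are transcribed. SET-32 is a putative H3K9 methyltransferase that nuclear RNAi requires for the H3K9me3 it directs to its targets. MET-2 and SET-25 make most of the H3K9 methylation of the worm, and HRDE-1 is the germline Argonaute protein that carries small RNAs into the nucleus. A whole young adult mixes somatic tissue and germ line, so fewer cells with Pol II in a window and less Pol II per cell cannot be told apart in these data.

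The Pol II libraries held 3817500 to 6782000 aligned reads and the H3K9me3 libraries 2445500 to 7226000, as read from the step that 1 read makes in RPKM. The limit of 8 RPKM was 34.7 to 39.3 reads in the WT libraries. The median member held 164 and 129 reads in WT on gfp RNAi and oma-1 RNAi, and 36 and 47 reads in set-32. In the deposited table, the column names of the Pol II libraries begin with one prefix in the triple mutant and set-32 and with another in hrde-1, met-2 set-25 and WT. What the prefix stands for is not given in the sources used here, so the set-32 mutation and the prefix cannot be told apart. The same holds for H3K9me3, where hrde-1, met-2 set-25 and WT share 1 prefix that no library of set-32 or the triple mutant has. This applies to every comparison below between a strain with the set-32 mutation and one without it, in both assays. The windows are given by chromosome and number, counted from 0 along each chromosome of the WS190 genome, so that window 11757 of chromosome II spans positions 11757001 to 11758000. No gene annotation of WS190 was used here, and the windows therefore carry no gene names. The location of the set-32 deletion itself was not checked.

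In the 621 windows the median Pol II level was 33.4 RPKM in WT on gfp RNAi and 29.7 RPKM in WT on oma-1 RNAi, against 8.03 and 8.88 RPKM in set-32. These 4 libraries chose the windows, so the difference between them is a description and carries no test. The median ratio of set-32 to WT was 0.32 with gfp RNAi and 0.36 with oma-1 RNAi, with quartiles of 0.22 and 0.40 and of 0.27 and 0.43. Over the 29447 windows that could have been chosen, the median ratios were 1.03 and 0.95. The members were thus 2.11% of those windows, and after depth normalization the typical window had a similar level in set-32 and in WT.

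**Figure D1:**
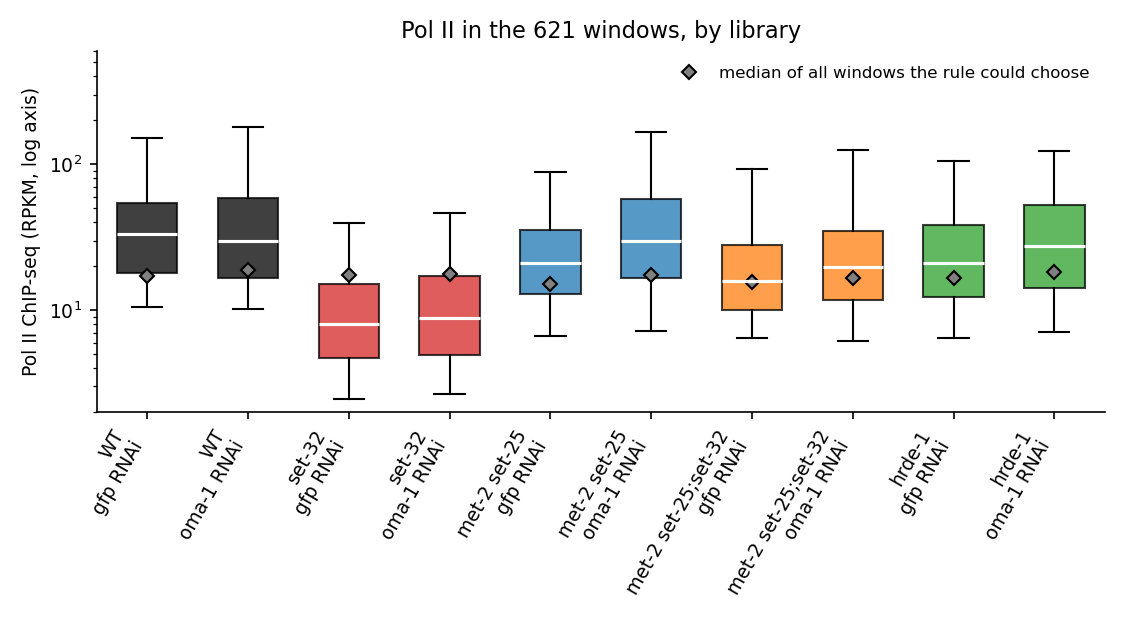
Pol II level in RPKM (log axis) of the 621 windows in each of the 10 Pol II libraries, with boxes from the first to the third quartile, a white line at the median and whiskers at the 5th and 95th percentiles. The grey diamonds are the medians of the 29447 windows that could have been chosen, which lie between 15.02 and 18.9 RPKM in all 10 libraries, while the members' median falls to 8.03 and 8.88 RPKM in set-32 and lies at 15.9 and 19.6 RPKM in the triple mutant.

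In the 3 strains that had no part in the choice, the median of the members lay between those of WT and set-32. This median was 20.9 RPKM on gfp RNAi and 29.7 RPKM on oma-1 RNAi in met-2 set-25. It was 21.1 and 27.5 RPKM in hrde-1, and 15.9 and 19.6 RPKM in the triple mutant. Single members did not all follow the medians. On oma-1 RNAi 342 members (55.1%) were under WT in met-2 set-25, 404 (65.1%) in hrde-1 and 534 (86.0%) in the triple mutant. Of the windows that could have been chosen, 63.8%, 57.1% and 71.1% were under WT in the same order, so met-2 set-25 had the lower share in the members. On gfp RNAi 89.7%, 85.2% and 92.3% of the members were under WT, each above the share of the windows that could have been chosen. The WT libraries chose the windows, so these shares carry no test. Both set-32 libraries were lower than all 6 libraries of these 3 strains in 511 of the 621 windows. The same held for 6.22% of the windows that could have been chosen. Because a low value in set-32 chose the members, nothing is read from that difference.

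The ratios to WT stand side by side as follows, and all share the WT libraries that chose the windows. The triple mutant had a median ratio of 0.56 on gfp RNAi and 0.66 on oma-1 RNAi. For met-2 set-25 the medians were 0.68 and 0.97, and for hrde-1 they were 0.71 and 0.86. Over the windows that could have been chosen these medians were 0.88 and 0.86 for the triple mutant, 0.86 and 0.92 for met-2 set-25, and 0.94 and 0.95 for hrde-1. The triple mutant thus had the lowest median of the 3 strains in both feedings, and its median was above that of set-32 in both.

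The windows just inside the limits show how the choice was made. Window 5185 of chromosome II was the member with the ratio nearest to the limit, at 0.50, with 41.0 and 28.6 RPKM in WT and 15.2 and 13.8 RPKM in set-32 (gfp RNAi and oma-1 RNAi in this order here and below). Window 5339 of the same chromosome and window 1090 of chromosome X followed at the same rounded ratio. Windows 3956 of chromosome III, 4855 of chromosome II and 3798 of chromosome III were just outside at 0.50 as well, so members and their nearest non-members differed by less than the rounding. At the limit on WT, windows 9709 of chromosome V, 8324 of chromosome III and 6617 of chromosome IV were inside with 8.07 RPKM as their lower WT level. Windows 6321 of chromosome V, 7201 of chromosome III and 9531 of chromosome IV were outside with 7.84 RPKM. On counting error alone, with exact 95% intervals from the read numbers, the ratio of set-32 to WT lay under 0.5 in both feedings in 267 of the 621 members. These intervals do not cover the spread between animals. They come from the libraries that chose the windows and do not allow for that choice, so the count is a description and carries no test.

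The choice also depended on the feeding. Of the windows that could have been chosen, 1631 passed the ratio limit with gfp RNAi and 1218 with oma-1 RNAi. The 621 that passed both were 38.1% of the former and 51.0% of the latter.

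The lowest ratios stood in a block of very high Pol II on chromosome II. It was a stretch of 7 members, windows 11756 to 11762 (positions 11756001 to 11763000). Window 11757 had 123 and 577 RPKM in WT and 8.37 and 11.7 RPKM in set-32. Met-2 set-25 had 65.3 and 451 RPKM there, hrde-1 99.2 and 496 RPKM, and the triple mutant 185 and 344 RPKM. The ratio of the RPKM values was 0.068 on gfp RNAi (exact 95% interval 0.048 to 0.096) and 0.020 on oma-1 RNAi (0.016 to 0.026). These intervals cover counting error only and do not allow for the choice of the window on the same libraries. Set-32 was the only strain without high Pol II in this window. Windows 11758, 11760 and 11761 were alike, with 100 to 116 RPKM on gfp RNAi and 472 to 665 RPKM on oma-1 RNAi in WT, and 7.92 to 16.1 RPKM in set-32. At 11760 the triple mutant reached 236 and 399 RPKM.

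The neighbouring windows 10139 to 10141 of chromosome X were also among the 10 lowest. Window 10141 had 83.1 and 58.8 RPKM in WT, and 4.69 and 3.59 RPKM in set-32. It had 37.1 and 51.9 RPKM in met-2 set-25, 31.9 and 40.9 RPKM in hrde-1, and 19.4 and 28.8 RPKM in the triple mutant. In this window the triple mutant lay between set-32 and the other strains in both feedings, unlike in window 11757. At window 10139 it did so on gfp RNAi alone, since hrde-1 had 12.05 RPKM on oma-1 RNAi and the triple mutant 30.4 RPKM. The other members among the 10 with the lowest ratios were window 9321 of chromosome I, window 14599 of chromosome II and window 12666 of chromosome X. Window 9321 had 21.2 and 74.9 RPKM in WT against 2.45 and 3.59 RPKM in set-32, and window 12666 had 45.2 and 174.7 RPKM against 7.14 and 7.18 RPKM.

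Among the 10 members with the most Pol II in WT, 4 were the windows of the chromosome II block. Window 11914 of chromosome IV had 326 and 349 RPKM in WT, 220 and 184 RPKM in hrde-1, 257 and 331 RPKM in met-2 set-25, 182 and 252 RPKM in the triple mutant, and 84.6 and 133 RPKM in set-32. Window 20158 of chromosome V had 244 and 293 RPKM in WT and 59.1 and 55.4 RPKM in set-32, while the triple mutant had 241 and 282 RPKM. Windows 8444 and 8445 of chromosome III and windows 7657 and 7658 of chromosome I complete this group. In window 7658 the levels were 224 and 309 RPKM in WT, 193 and 256 RPKM in met-2 set-25, 80.8 and 111 RPKM in the triple mutant, and 30.6 and 57.1 RPKM in set-32. The set-32 level of these 6 windows was still above the members' median in set-32, so a member can keep much Pol II after the fall.

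To ask whether the triple mutant shared the fall, it was compared with met-2 set-25. These strains differ by the set-32 mutation, and neither was used to choose the windows. Pol II was lower in the triple mutant in 64 of the 621 members (10.3%) and higher in 0. Over all 99742 windows tested, 0.214% were lower and 0.615% were higher. Of the windows that could have been chosen, 0.587% were lower and 0.835% higher. The test was limma on log2(RPKM + 1) with feeding as a covariate, fitted on the 6 libraries of the triple mutant, met-2 set-25 and hrde-1. A window was called when its Benjamini-Hochberg adjusted p, taken over all windows, was under 0.05 and the difference was at least 2-fold. At an unadjusted p under 0.05, limma found 290 members lower (46.7%) and 27 higher (4.35%), against 3.95% and 5.17% of all windows. The median log2 difference was -0.40 over the members, with quartiles of -0.74 and -0.10. It was -0.03 over the windows that could have been chosen and 0.05 over all windows. The triple mutant was lower than met-2 set-25 in both feedings in 404 members (65.1%), and in 35.8% of the windows that could have been chosen. It was lower than hrde-1 in both feedings in 340 members (54.8%), against 44.2%, and met-2 set-25 was lower than hrde-1 in both in 173 (27.9%), against 39.8%. The 64 members were 30.0% of all windows called lower in this comparison. The count fell to 31 without the triple mutant on oma-1 RNAi (0.182% of all windows), with 10 members higher (0.272%). It was 41 without the triple mutant on gfp RNAi (0.0842%), and 17 without met-2 set-25 on oma-1 RNAi (0.0983%), with 2 higher (0.342%). With a pseudocount of 5 it was 29 (0.0642%).

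**Figure D2:**
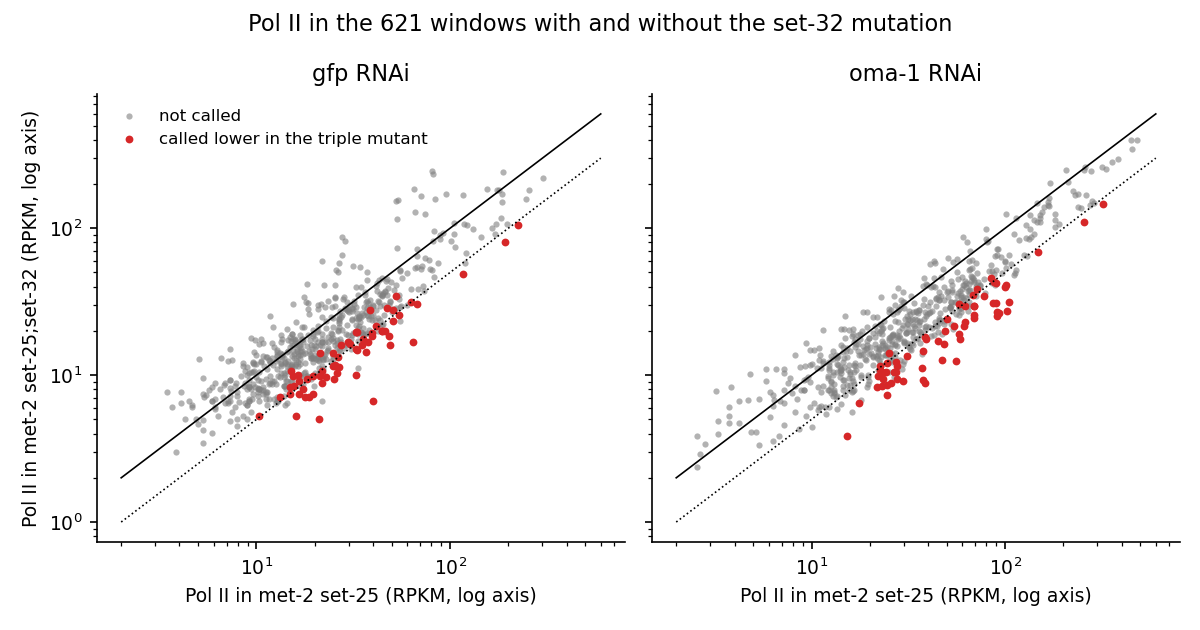
Pol II level in RPKM (log axes) of each of the 621 windows in met-2 set-25 (x axis) and in the triple mutant (y axis), with gfp RNAi on the left and oma-1 RNAi on the right. The solid line marks equal levels and the dotted line 2-fold lower levels, and the 64 windows called lower in the triple mutant are red, while most of the other members also lie under the solid line, 404 of the 621 in both feedings.

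The 64 windows lay in 37 stretches. The largest difference was at window 9798 of chromosome II, which had 40.2 and 25.7 RPKM in met-2 set-25 and 6.65 and 8.77 RPKM in the triple mutant. The libraries of these strains did not overlap, and the log2 difference was -1.94 (SE 0.26, limma adjusted p = 1.53e-06). In set-32 the window had 4.24 and 3.87 RPKM and in hrde-1 15.1 and 5.24 RPKM.

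Window 8244 of chromosome X came next, in a stretch of 6 members from 8242 to 8247. It had 53.0 and 53.0 RPKM in WT, 25.2 and 55.6 RPKM in met-2 set-25, 31.6 and 30.9 RPKM in hrde-1, 9.47 and 12.5 RPKM in the triple mutant, and 5.58 and 6.80 RPKM in set-32. Both strains with the set-32 mutation were below all others. The log2 difference between the triple mutant and met-2 set-25 was -1.69 (SE 0.23, limma adjusted p = 1.51e-06). At windows 8243 and 8245 of the same stretch it was -1.49 and -1.59.

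A stretch of 7 members on chromosome II, 14598 to 14604, held 6 of the called windows. Window 14602 had 53.99 and 157 RPKM in WT and 10.0 and 17.6 RPKM in set-32. It had 48.5 and 103 RPKM in met-2 set-25, 60.6 and 61.6 RPKM in hrde-1, and 18.5 and 27.3 RPKM in the triple mutant. The triple mutant lay between set-32 and the 3 strains with wild-type set-32, with a log2 difference from met-2 set-25 of -1.61 (SE 0.22, limma adjusted p = 2.03e-06). Window 14603 differed by -1.45.

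The other 4 of the 10 called windows with the largest differences stood apart from these stretches. Window 6742 of chromosome X had 64.1 and 85.0 RPKM in met-2 set-25 against 16.9 and 45.7 RPKM in the triple mutant. Window 6509 of chromosome III had 49.1 and 77.8 RPKM against 16.1 and 34.4 RPKM. Both calls were lost without the triple mutant on gfp RNAi, with adjusted p = 0.26 and 0.095 in limma. Window 6633 of chromosome II (17.5 and 37.4 against 8.06 and 11.2 RPKM) was lost without met-2 set-25 on oma-1 RNAi (limma adjusted p = 0.48). Without that library windows 8245 and 14603 were lost too, with adjusted p = 0.091 and 0.062. Window 14848 of chromosome V (21.1 and 24.99 against 5.04 and 14.2 RPKM) was lost in 3 of 11 alternatives.

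Other members did not pass this test. In the chromosome II block, window 11757 differed by 0.55 (SE 0.28, limma adjusted p = 0.58) and window 11760 by 0.63 (SE 0.29, adjusted p = 0.47). The feedings went opposite ways in both windows. On gfp RNAi the triple mutant was higher than met-2 set-25, at 185 against 65.3 RPKM and 236 against 81.6 RPKM. On oma-1 RNAi it was lower, at 344 against 451 RPKM and 399 against 479 RPKM. At window 20158 of chromosome V the log2 difference was 0.01 (SE 0.26), and at window 12666 of chromosome X it was -0.28 (SE 0.23). Window 10141 of chromosome X differed by -0.87 (SE 0.21, adjusted p = 0.014), which is past the limit on p and short of 2-fold. By chromosome, the called share of members was 13.9% on II, 13.0% on III, 12.5% on I, 12.2% on X, 7.69% on IV and 3.91% on V, where 5 of 128 members were called.

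**Figure D3:**
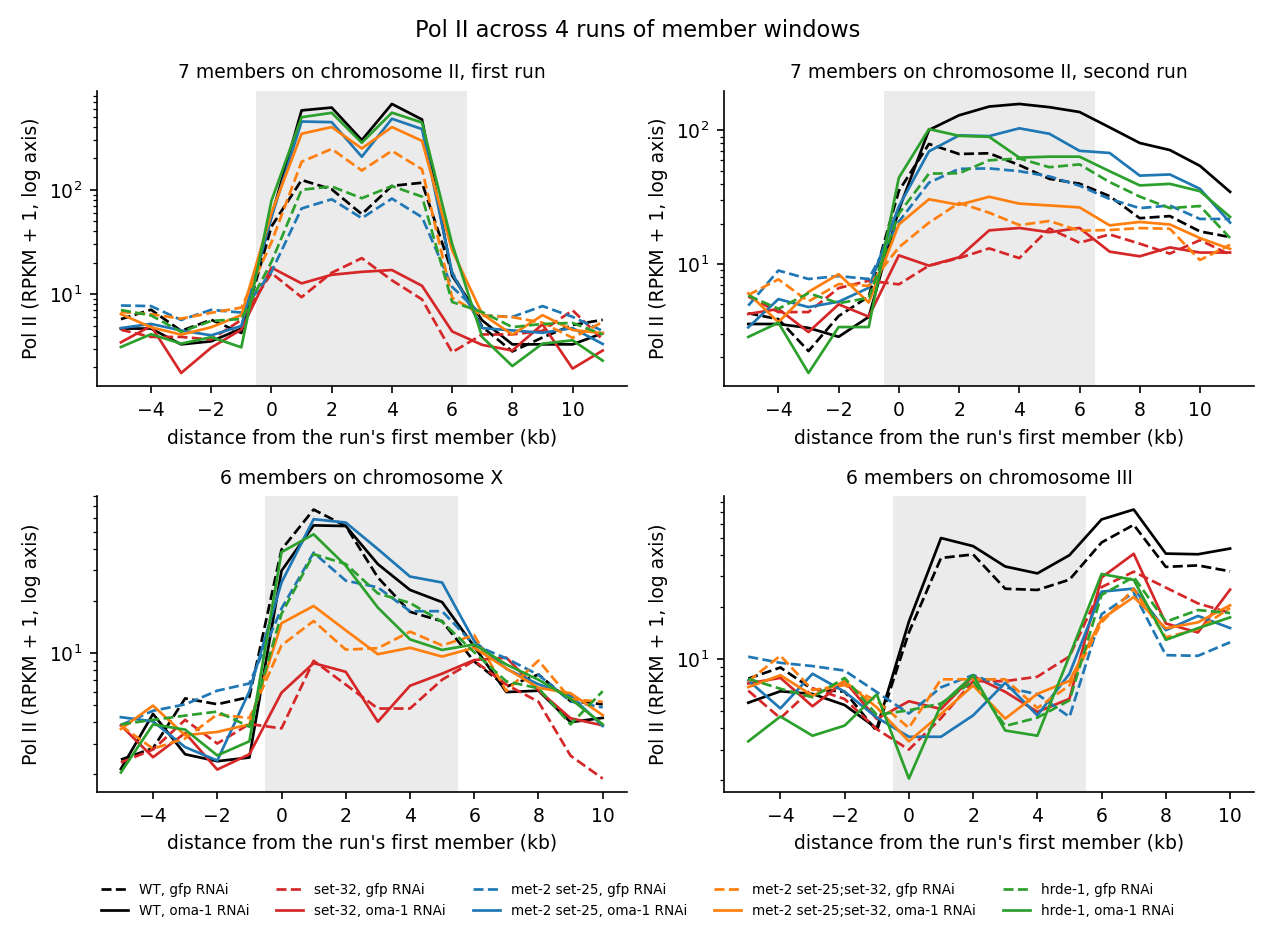
Pol II in RPKM + 1 (log axes) along 4 stretches of members, with 5 windows to either side. The x axis gives the distance in kb from the first member, the grey area marks the members, the colours mark the strains, and broken and solid lines stand for gfp RNAi and oma-1 RNAi. In the first stretch (chromosome II, 11756 to 11762) windows 11757 to 11761 are low in set-32 alone. Its outer windows, 11756 and 11762, are on gfp RNAi also under WT in the other mutant strains. The second (chromosome II, 14598 to 14604) and the third (chromosome X, 8242 to 8247) are low in the triple mutant as well as in set-32, and the fourth (chromosome III, 1819 to 1824) is high in WT alone.

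The comparison of the triple mutant with hrde-1 gave 66 members lower (10.6%) and 1 higher (0.161%). Of the windows that could have been chosen, 3.41% were lower and 1.37% higher, and of all windows 1.34% and 3.85%. Of the members called lower against met-2 set-25, 23 were also called lower here, and both comparisons use the same triple mutant libraries. The one member that was higher, window 12826 of chromosome V, had 17.5 and 20.6 RPKM in the triple mutant and 8.87 and 8.91 RPKM in hrde-1 (log2 difference 1.02, SE 0.24, limma adjusted p = 0.0026). The median log2 difference was -0.32 over the members, -0.12 over the windows that could have been chosen and 0.26 over all windows. Dividing each library by its median window moved the median of all windows to -0.07 and raised the members called lower to 194 and the share of all windows called lower to 4.64%. The lower count was 43 without the triple mutant on oma-1 RNAi (0.994% of all windows), 101 without it on gfp RNAi (1.9%), and 35 with a pseudocount of 5 (0.703%).

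Met-2 set-25 and hrde-1, which both have wild-type set-32, differed in members of both directions, 9 lower and 10 higher in the former. These were 1.45% and 1.61% of the members. The corresponding shares were 1.11% and 0.353% of the windows that could have been chosen, and 0.684% and 1.1% of all windows. The median log2 difference was 0.05 over the members, -0.09 over the windows that could have been chosen and 0.18 over all windows. Without hrde-1 on gfp RNAi, 29 members were lower and 59 higher, against 1.48% and 4.41% of all windows. Without hrde-1 on oma-1 RNAi 4 were lower (0.61% of all windows), with a pseudocount of 5 the number was 2 (0.427%), and with each library divided by its median window it was 22 (1.63%).

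A different pattern, in which WT and not set-32 stood apart, was seen in 3 stretches. They were picked out after their values were seen, as those that hold a member in which both WT libraries were at least 2 times every other Pol II library. In windows 1819 to 1824 of chromosome III (positions 1819001 to 1825000) Pol II ranged from 13.2 to 48.9 RPKM in WT, from 2.01 to 9.37 RPKM in set-32, and from 1.05 to 9.43 RPKM in the 6 libraries of the other 3 strains. The 4 mutant strains overlapped, and WT was higher than all of them. In the next 5 windows (1825001 to 1830000) WT had 31.1 to 71.8 RPKM and the other strains 9.45 to 39.5 RPKM. In windows 3889 to 3895 of the same chromosome, which hold 6 members, WT had 8.53 to 25.9 RPKM, set-32 2.02 to 4.91 RPKM and the other 3 strains 2.62 to 9.28 RPKM. In windows 2995 and 2996 of chromosome IV WT had 42.3 to 86.4 RPKM, set-32 12.5 to 20.0 RPKM and the other 3 strains 13.5 to 25.5 RPKM. Both WT libraries were at least 2 times every other library in 8 members, 6 of them in the first stretch. That was 0.0272% of the windows that could have been chosen. All of those were members, which the rule nearly fixed, because the set-32 libraries are among the others and the rule sets almost the same limit on them.

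H3K9me3 also set WT on RNAi bacteria apart in 2 of these stretches. In windows 3889 to 3895 of chromosome III the members had 30.1 to 53.5 RPKM of H3K9me3 in WT on gfp RNAi or oma-1 RNAi, but 5.44 to 19.0 RPKM in WT on OP50. The other 12 libraries had 5.32 to 18.1 RPKM. In windows 2995 and 2996 of chromosome IV, WT had 30.1 to 83.6 RPKM on RNAi bacteria and 13.0 to 14.2 RPKM on OP50, and the other strains had 2.60 to 23.1 RPKM. In windows 1819 to 1824 of chromosome III the groups overlapped, with 6.45 to 18.7 RPKM in WT on RNAi bacteria, 3.52 to 10.2 RPKM in WT on OP50 and 1.49 to 17.7 RPKM in the other strains. Whether the WT animals of these feedings differed from those on OP50 in another way was not tested. None of the 14 members of these stretches was among the 64 called lower in the triple mutant than in met-2 set-25. Leaving them out of the count therefore could not change it.

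The H3K9me3 of the members was compared next. After scaling each library to its H3K9me3(−) windows, those with little H3K9me3 in WT on OP50, 9 of the 621 members were lower in set-32 than in WT and 0 were higher. Over all windows 0.47% were lower and 0.011% higher (limma, 15 libraries, feeding as a covariate, called as above). Of the windows that could have been chosen, 1.2% were lower and 0.0102% higher, so the members' 1.45% was near that share. At an unadjusted p under 0.05, limma found 48 members lower (7.73%) and 16 higher (2.58%), against 4.46% and 2.46% of all windows. The median log2 difference was 0.02 over the members and 0.06 over all windows. Of the 9 members, 7 lay in the stretches on chromosome III and chromosome IV just described. The largest difference was at window 2996 of chromosome IV, where WT had 83.6 RPKM on oma-1 RNAi, 66.8 on gfp RNAi and 13.0 on OP50. Set-32 had 11.7, 10.2 and 8.13 RPKM in the same order, with a log2 difference of -2.05 (SE 0.28, limma adjusted p = 4.91e-10). The SE and p of every H3K9me3 comparison come from a spread shared by windows of like level, not from the window's own libraries. They do not reflect that WT on OP50 lay far below WT on RNAi bacteria in these stretches. The other called windows of these stretches were 2995 (-1.47) of chromosome IV and 3889, 3890, 3891, 3892 and 3894 of chromosome III (-1.24 to -1.67). The count was 4 without WT on oma-1 RNAi (0.313% of all windows), which lost windows 3889, 3890, 3892 and 3894 and window 17645 of chromosome V, and 30 (4.83%) without WT on gfp RNAi, where the share of all windows called lower also rose, to 3.09%.

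The other 2 of the 9 were window 17645 of chromosome V and window 9519 of chromosome I. Window 17645 had 52.5, 30.6 and 68.8 RPKM of H3K9me3 in WT on oma-1 RNAi, gfp RNAi and OP50 and 23.1, 21.7 and 20.5 RPKM in set-32 (log2 difference -1.19, SE 0.32, limma adjusted p = 0.045). Its call was lost in 5 of 11 alternatives. It opens a stretch of 7 members, 17645 to 17652, in which the mean Pol II was 11.9 and 13.9 RPKM in WT, 11.7 and 13.9 RPKM in hrde-1, 6.96 and 5.82 RPKM in met-2 set-25, 7.93 and 9.03 RPKM in the triple mutant, and 3.66 and 3.67 RPKM in set-32.

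Window 9519 of chromosome I was low in both assays. Its H3K9me3 was 6.22, 7.93 and 3.84 RPKM in WT on oma-1 RNAi, gfp RNAi and OP50, and 0.60, 3.54 and 1.53 RPKM in set-32 (log2 difference -1.46, SE 0.25, limma adjusted p = 9.47e-06). Its Pol II was 8.35 and 10.4 RPKM in WT, 11.5 and 20.7 RPKM in hrde-1, 10.4 and 15.2 RPKM in met-2 set-25, 5.24 and 3.83 RPKM in the triple mutant, and 1.56 and 3.02 RPKM in set-32. Pol II in the triple mutant was lower than in met-2 set-25 (log2 difference -1.30, SE 0.26, limma adjusted p = 0.0021). Over the 6 H3K9me3 libraries of strains with the set-32 mutation this window ranged from 0.60 to 4.98 RPKM, and over the 9 libraries of the other strains from 3.43 to 8.72 RPKM. The set-32 gene lies on chromosome I. Whether this window holds it was not tested.

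In the other mutants, H3K9me3 was lower than in WT in 58 members of the triple mutant (9.2% of all windows), 50 of met-2 set-25 (6.08%) and 7 of hrde-1 (0.651%). It was higher in 1 member, window 10449 of chromosome II, in the triple mutant (background 0.013%; log2 difference 1.10, SE 0.29, limma adjusted p = 0.0016), and in 0 in the other strains (0.118% and 0.0742%), where limma found 22 and 21 members higher at an unadjusted p under 0.05 (3.54% and 3.38%, against 3.97% and 2.78% of all windows). The shares of members called lower, 9.34%, 8.05% and 1.13%, were near the background. With depth normalization alone, 34 members were lower in the triple mutant (4.36% of all windows). Without WT on OP50, 32 were lower in met-2 set-25 (2.94%). The hrde-1 count was 4 without hrde-1 on oma-1 RNAi (0.47%), 2 without WT on oma-1 RNAi (0.515%) and 15 without WT on gfp RNAi (1.39%).

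The members were not spread over the chromosomes as the windows that could have been chosen were. Chromosome X held 139 members, 22.4% of them, and 7.36% of the windows that could have been chosen. Of its windows that could have been chosen, 6.41% were members, against 1.77% on the autosomes. Chromosome V followed with 128 members (3.02%), then chromosome II with 115 (2.38%), IV with 91 (1.78%), III with 92 (1.49%) and I with 56 (0.808%). With each chromosome cut into 3 parts of equal length, the share on X was 5.10%, 8.40% and 5.65% from its start to its end. On chromosome II it was 0.94%, 2.65% and 3.00%.

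**Figure D4:**
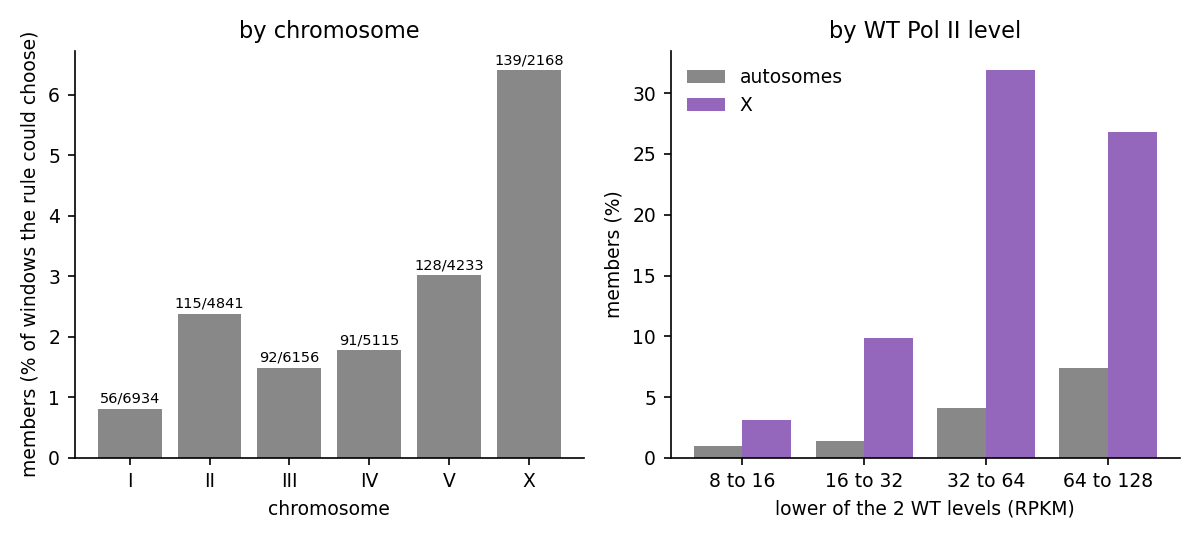
Members as a percentage of the windows that could have been chosen, by chromosome with the counts above the bars (left), and for the autosomes and chromosome X by the lower of the 2 WT Pol II levels in RPKM (right). Chromosome X has the highest bar at 6.41%, and its share is above that of the autosomes in all 4 level classes shown. In the class of 128 RPKM or more, which is not drawn, 1 of 25 windows on X and 29 of 179 on the autosomes were members.

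Over all chromosomes, the share of members was higher at higher WT levels. It was 1.22% of the windows whose lower WT level was 8 to 16 RPKM, 1.75% at 16 to 32, 5.08% at 32 to 64, 8.43% at 64 to 128 and 14.7% at 128 RPKM or more. On the autosomes it was 1.01%, 1.39%, 4.12%, 7.37% and 16.2% in the same classes. On X it was 3.09%, 9.86% and 31.9% in the first 3 classes, and lower in the top classes, with 26.8% and then 4.0%, where 1 of 25 windows was a member. The WT level is part of the rule that chose the windows, and neighbouring windows are not independent, so these shares carry no test.

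Members came in stretches. Joining members with at most 1 kb between them gave 297 stretches, of which 151 were single windows, 67 had 2 members and 79 had at least 3. The 79 held 336 members, and 22 of them were on X. The longest was windows 4467 to 4478 of chromosome IV (4467001 to 4479000), with 10 members and a mean Pol II of 50.0 and 56.2 RPKM in WT, 22.4 and 27.2 RPKM in the triple mutant and 14.3 and 18.2 RPKM in set-32. Windows 4137 to 4145 of chromosome X held 9 members, with 39.5 and 43.5 RPKM in WT, 16.7 and 24.1 RPKM in the triple mutant and 13.0 and 14.1 RPKM in set-32. In both stretches the triple mutant was between set-32 and WT. Windows 12549 to 12556 of chromosome V, 2765 to 2773 of chromosome IV and 10544 to 10553 of chromosome II held 8 members each. In the first of these the mean was 41.6 and 59.4 RPKM in WT and 6.83 and 8.01 RPKM in set-32, and in the last it was 112 and 139 RPKM in WT and 50.9 and 57.0 RPKM in set-32. The remaining 5 of the 10 longest had 7 members each, namely 11756 to 11762, 14598 to 14604 and 8475 to 8482 of chromosome II, 12662 to 12668 of chromosome X and 17645 to 17652 of chromosome V.

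The surroundings of the members were also measured. A window near a member that is not one itself failed a limit on the same WT and set-32 libraries, so the values below are in part set by the rule and do not show how far a difference extends. In windows 1 kb from the nearest member, which are themselves not members, the median Pol II was 14.7 RPKM in WT and 7.14 RPKM in set-32, and the median ratio to WT was 0.57. At 2 kb the ratio was 0.76, at 5 kb 0.93 and at 9 kb 1.00, and beyond 10 kb it was 1.03. The median WT level fell from 31.6 RPKM in the members, where the rule required 8 RPKM, to 6.11 RPKM at 3 kb, where it did not. The ratio of the triple mutant to WT, which shares the WT libraries, was 0.60 in the members, 0.85 at 1 kb, 1.01 at 2 kb and 1.20 beyond 10 kb.

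**Figure D5:**
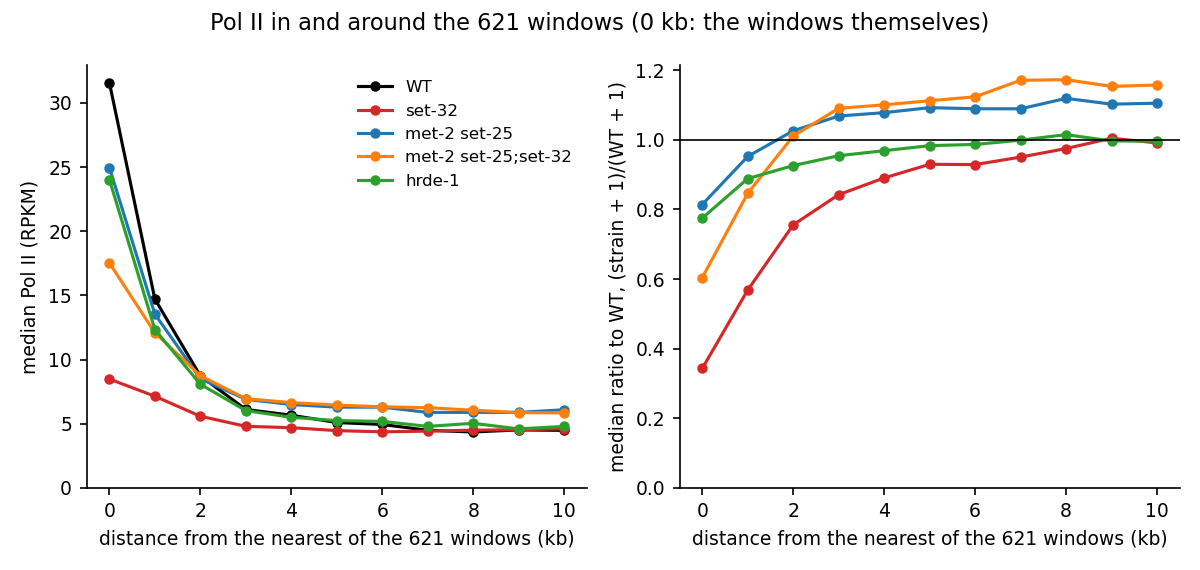
Median Pol II in RPKM of each strain (left) and median ratio to WT (right), over both feedings, by distance in kb from the nearest of the 621 windows, which are the points at 0 kb. The set-32 ratio goes from 0.34 in the members to 0.57 at 1 kb and 0.93 at 5 kb, and that of the triple mutant from 0.60 to 0.85 and 1.11.

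None of the 621 members was marked as GRH or GRTS, the windows where germline nuclear RNAi directs H3K9me3 and silences transcription in the authors' earlier work. Of the 29447 windows that could have been chosen, 146 were GRH and 27 GRTS, and of the 99764 windows not marked as misannotated 215 and 191. Both marks are rare, so nothing is read from their absence among the members. The median H3K9me3 of the members was above that of the windows that could have been chosen in all 15 H3K9me3 libraries, for example 8.47 against 6.52 RPKM in WT on gfp RNAi and 7.04 against 3.52 RPKM in WT on OP50. It was at or below the median of all windows in these libraries, which was 8.47 RPKM in WT on gfp RNAi, 7.04 in WT on OP50, and 9.42 in met-2 set-25 on oma-1 RNAi, where the members had 8.72. H3K9me3(−) windows were 19.3% of the members (120), 51.5% of the windows that could have been chosen, and 22.3% of all windows. H3K9me3(+) windows, the top 5 percent in WT on OP50, were 5.31% (33), 2.74% and 5.04% in the same order, so the members were near the share over all windows.

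The members also differed between feedings in some strains. Pol II was at least 2-fold higher or lower on oma-1 RNAi than on gfp RNAi in 11.8% of the members in WT (2.12% of the windows that could have been chosen), 12.4% in met-2 set-25 (1.35%) and 19.5% in hrde-1 (7.57%). The shares were 2.09% in the triple mutant (0.625%) and 3.06% in set-32 (0.591%). With 1 library per strain and feeding these differences have no replicate check. The SD of the log2 ratio between feedings over the members was 0.74 in hrde-1, 0.67 in WT, 0.52 in met-2 set-25, 0.43 in set-32 and 0.38 for the triple mutant. In WT 36 members were higher and 37 lower on oma-1 RNAi, whereas in met-2 set-25 76 were higher and 1 lower.

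The clearest cases were higher on oma-1 RNAi in the 3 strains with wild-type set-32 and, by a smaller fold, in the triple mutant. They were picked out after their values were seen. In windows 11757 to 11761 of chromosome II WT had 57.6 to 123 RPKM on gfp RNAi and 299 to 665 RPKM on oma-1 RNAi. Met-2 set-25 had 52.6 to 81.6 and 207 to 479 RPKM, and hrde-1 82.2 to 108 and 282 to 549 RPKM. The triple mutant was high in both feedings, at 152 to 246 and 249 to 399 RPKM, and set-32 was low in both, at 7.92 to 21.2 and 11.1 to 16.1 RPKM. In windows 9087 to 9089 of chromosome V set-32 was again low in both feedings and the other strains were higher on oma-1 RNAi, where hrde-1 had the highest levels and not WT. These windows had 33.8 to 36.9 and 178 to 216 RPKM in WT, 21.8 to 28.8 and 141 to 169 RPKM in met-2 set-25, 42.3 to 52.7 and 240 to 255 RPKM in hrde-1, 59.5 to 86.9 and 113 to 152 RPKM in the triple mutant, and 6.84 to 8.81 and 6.05 to 7.65 RPKM in set-32. Across the 621 members, Pearson's r of the log2 ratio between feedings was 0.58 between WT and met-2 set-25, 0.51 between met-2 set-25 and hrde-1, and 0.40 between the triple mutant and met-2 set-25. It was 0.35 between the triple mutant and hrde-1, 0.285 between WT and hrde-1, 0.12 between WT and the triple mutant, and between -0.03 and 0.16 for set-32 with each other strain. Over the windows that could have been chosen, the same pairs had 0.33, 0.35, 0.30, 0.36, 0.05 and 0.06, and set-32 between -0.08 and 0.12. These are descriptions over windows, many of them neighbours, from 2 libraries per strain.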

How the data were processed

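Pol II and H3K9me3 ChIP-seq values of 25 libraries were read from 1 table of 1 kb windows. The authors aligned 50-nt single-end reads to WS190 with Bowtie 0.12.7 per the labels and methods, kept perfect alignments, counted a read with N loci as 1/N in each, and deposited RPKM normalized to depth. Columns were assigned to samples through the library table of the study's supplement, since the labels do not hold the library names. The values of 5 input samples were not used here. Marks in the table for GRH, GRTS and misannotated windows were used. Its columns of the authors' own comparisons, which mark windows that depend on the methyltransferases, were not used.

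Of the windows, 506 marked as misannotated and 22 whose mean over the libraries was below 3 RPKM were not tested, and 99742 remained. All 621 members passed. Comparisons used limma 3.58.1 in R 4.3.3 with the trend term on log2(RPKM + 1), so that differences of low windows are understated. The Pol II fit used 6 libraries, 3 strains by 2 feedings, with 2 residual degrees of freedom and a prior of 53.7. H3K9me3 libraries were scaled to the median of their H3K9me3(−) windows, the 5th to 25th percentile of WT on OP50, and fitted together with an infinite prior. In that fit the SE of a window is therefore set by its mean level and not by its own spread. On simulated data for the comparison of the triple mutant with met-2 set-25 over 99742 windows, 32% of 2-fold and 100% of 4-fold changes were recovered, and for H3K9me3 of set-32 against WT 51% and 100%. The changed windows were drawn from all those above the median level, and the simulated H3K9me3 values were fitted without the scaling to H3K9me3(−) windows. Depth was taken from the single-read step of the RPKM values. Intervals cover counting error only and do not allow for the choice of the windows on the same libraries. Windows named in the text were the 10 with the lowest ratio, the 10 with the highest WT level, the 3 nearest to each limit on either side, the 10 longest stretches, and up to 10 called in each of 2 comparisons, the triple mutant against met-2 set-25 and H3K9me3 in set-32. The windows and the lists were chosen with earlier results of these data known. Other pseudocounts, filters, scalings, fits and left-out libraries were tried as alternatives. The rest was done with scipy 1.17.1, pandas 2.3.3 and numpy 2.4.6 under Python 3.11.15, and the plots with matplotlib 3.10.9.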

Additional observations from a re-analysis of the deposited data

How the results depend on the processing

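The libraries of the strains were paired by feeding, which entered the fits as a covariate, and the labels give no replicate numbers for any other pairing. Without this block, 48 members were lower in the triple mutant than in met-2 set-25 (0.146% of all windows). The number of members was 438 to 810 under the other pseudocounts, WT limits and scaling and with misannotated windows kept, 326 at a ratio of 0.4, 1753 at 0.67, and 1376 to 2624 from 1 feeding alone. Using met-2 set-25 or hrde-1 in place of WT, which was chosen after seeing the data, gave 830 and 806 windows, which held 330 (53.1%) and 279 (44.9%) of the 621 members.

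With a pseudocount of 5, the members called lower were 29 for the triple mutant against met-2 set-25, 35 for it against hrde-1 and 2 for met-2 set-25 against hrde-1. With each library divided by its median window, the last 2 comparisons gave 194 and 22. That scaling moved all windows called lower and higher from 213 and 613 to 182 and 281 in the first comparison, from 1333 and 3838 to 4630 and 1274 in the second, and from 682 and 1096 to 1630 and 610 in the third. Leaving out 1 library gave 17 to 66, 43 to 101 and 4 to 29 members lower in the 3 comparisons. Each of these fits left 1 strain with 1 library. The shares of all windows called lower and the members called higher changed too. The median log2 difference over the members was -0.527 to -0.323, -0.428 to -0.258 and -0.056 to 0.136. Over all windows it was -0.06 to 0.164, 0.118 to 0.384 and 0.089 to 0.257. For H3K9me3 against WT, leaving out 1 library gave 4 to 30 in set-32, 2 to 15 in hrde-1, 32 to 60 in met-2 set-25 and 42 to 73 in the triple mutant. The shares of all windows called lower moved too, over 0.129% to 3.09%, 0.364% to 1.39%, 2.94% to 9.35% and 5.75% to 13.4% in the same order. Depth normalization alone gave 34 in the triple mutant, and moved all windows from 9176 lower and 13 higher to 4349 and 512. The cause of these changes was not tested.

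The 19 named windows called in 2 of these comparisons kept their direction in all 209 alternatives and their call in 191. Those of the triple mutant against met-2 set-25 were the 10 largest differences among its 64 calls, and the alternatives reuse the same libraries. These counts therefore do not stand for the other calls. The comparison of the triple mutant with met-2 set-25 had 2 libraries per strain, and 32% of simulated 2-fold changes were recovered. A call required an estimated difference of at least 2-fold, so a true 2-fold difference is often not called, whatever the number of libraries. The simulation did not place its changes in the members, so it gives no recovery for them.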
